A study of Mus musculus with 3 samples.

Results

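The BCL2 family genes described here are the 3 survival genes Bcl2, Bcl2l1 and Mcl1, the effector gene Bak1 and the 6 BH3-only genes Bid, Bad, Bcl2l11, Bik, Bmf and Pmaip1. They were taken by gene symbol from the platform annotation, and all 10 were measured, among 19938 genes in all. Each was read by 1 probe set that carried no other symbol. RNA came from kidney of female CBL/6 mice of 8 to 10 weeks, read on 1 Affymetrix Mouse Gene 1.0 ST array per group. The control array holds kidney of non-treated mice. The NTS array holds kidney of mice given a single injection of sheep nephrotoxic serum (NTS), an antiserum that causes an immune nephritis, in a dose of 13.5 ug per g of mouse. The NTS/PGE2 array holds kidney of mice given the same serum followed by daily prostaglandin E2 (PGE2), a lipid mediator, in a dose of 5 ug per g from day 2 on. The treated mice were killed on day 7. For the control mice the labels name neither a day nor a control serum or vehicle, and for each array they do not say whether 1 animal or a pool was used.

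Proteins of the BCL2 family decide whether the outer mitochondrial membrane is breached, which releases cytochrome c and starts the caspase cascade of apoptosis. Survival proteins (BCL-2, BCL-XL, MCL-1) hold the pore-forming effectors such as BAK in check, and BH3-only proteins respond to damage or loss of survival signals by binding the survival proteins or by activating the effectors. In the kidney, loss of tubular epithelium by apoptosis is a known part of acute injury. The family is also controlled by phosphorylation, cleavage and protein turnover, which arrays of RNA do not measure.

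With 1 array per group there was no replicate, no test was run and no p-value is given. Differences were counted from 2-fold upward, a log2 difference of 1, where the higher of a gene's 2 values reached the median of its array. All 10 genes passed this filter in all 3 comparisons. The error yardstick, called the technical SD here, rests on probe sets and not on animals. It is the SD of 1 probe set's difference, from genes read by 2 bright probe sets, and it was 0.20 between NTS and control, 0.21 between NTS/PGE2 and NTS and 0.12 between NTS/PGE2 and control. It leaves out the spread between animals. The same 461 genes gave a different value in each comparison, so it may hold more than technical error. Of 11778 genes passing the filter for NTS against control, 2254 had exactly equal values. The part of such values in the technical SD was not tested. Multiples of the technical SD from different comparisons are not on one scale. The kidney origin was borne out by the 19 measured proximal tubule markers, whose median level on the control array was 12.68 on the log2 scale, against 7.11 for all probe sets. In whole kidney, fewer cells of a type and less RNA per cell cannot be told apart.

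On the NTS array the family differed from control in both directions and by less than 2-fold. Bcl2l1 and Bak1 stood highest above control, by log2 differences of 0.98 and 0.90, followed by Bcl2l11, Bmf and Pmaip1 between 0.44 and 0.66. Bcl2 stood below control at -0.61. On the NTS/PGE2 array Bak1 stood 2.35-fold below the NTS array, and it was the member past 2-fold in that comparison. Against control, the 10 genes on the NTS/PGE2 array lay between -0.33 and 0.13.

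**Figure D1:**
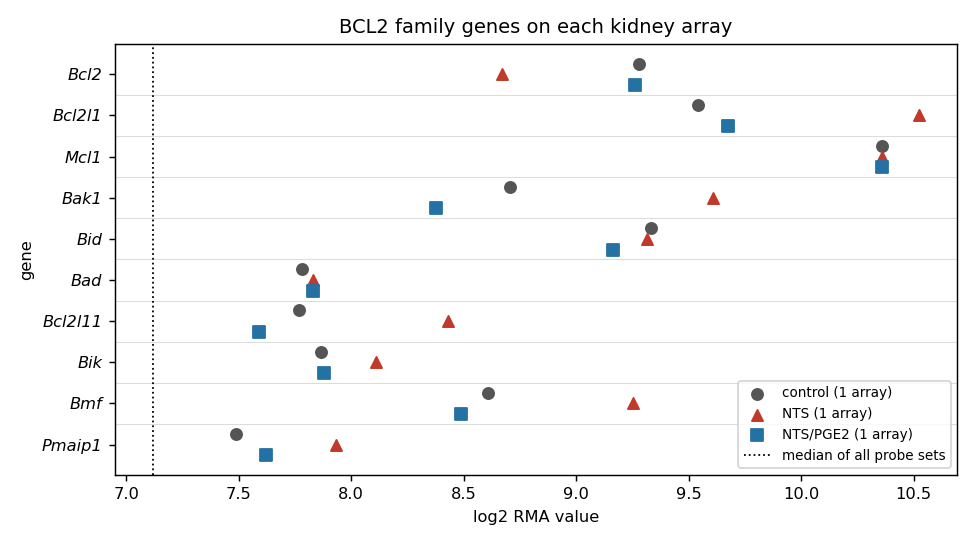
Log2 RMA value (horizontal axis) of each BCL2 family gene (vertical axis) on the control, NTS and NTS/PGE2 arrays, 1 array per group, with the median of all probe sets as a dotted line. The NTS value of Bcl2l1, Bak1, Bcl2l11, Bik, Bmf and Pmaip1 lies to the right of both other arrays, that of Bcl2 lies to the left, and the 3 values of Mcl1 coincide at 10.36.

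The survival genes differed from one another. Bcl2l1, which encodes BCL-XL, read 9.54 in control kidney, 10.52 after NTS and 9.67 after NTS with PGE2. The NTS array was thus 1.98-fold above control, just short of the 2-fold rule, and the NTS/PGE2 array 1.80-fold below NTS. Of the 11778 genes passing the filter for NTS against control, 2.77% differed as much or more in that direction. The gene is spliced into a long form that protects and a short form that promotes death, and its single probe set does not separate them.

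Bcl2, the founding member of the family, ran the other way, with 9.28 in control kidney, 8.67 after NTS and 9.26 after NTS with PGE2. Its difference for NTS against control, a size of 1.52-fold, was 3.03 times the technical SD, and 11.4% of genes lay as low or lower. After PGE2 it stood 0.59 above NTS and -0.02 from control, the latter within the technical SD and of positive sign when arrays were centred on the median of bright genes. The difference of Bcl2l1 for NTS against control exceeded that of Bcl2 by 1.59, where the technical SD of such a gap was 0.28. This pair was chosen after its values were seen. After PGE2 the gap was -1.44 relative to NTS and 0.15 relative to control, the latter within its SD of 0.18.

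Mcl1, whose protein is turned over within a short time and is much regulated after transcription, read 10.36 on all 3 arrays. Exactly equal values on all 3 arrays were found in 29.1% of genes, and the summary step of RMA can produce them, so they do not show that the transcript was constant.

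Bak1 encodes BAK, an effector that sits in the outer mitochondrial membrane and forms pores once activated. It read 8.71 in control kidney, 9.61 after NTS and 8.38 after NTS with PGE2. The NTS array was highest and the NTS/PGE2 array lowest. Between NTS/PGE2 and NTS the log2 difference was -1.23, which is 5.84 times the technical SD, and 2.12% of 11699 genes lay as low or lower. Bak1 was also the member farthest from control on the NTS/PGE2 array, at -0.33, 2.66 times the technical SD, a distance that 6.68% of genes reached or passed in that direction.

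Among the BH3-only genes, Bcl2l11 and Bmf had nearly the same differences. Bcl2l11 encodes BIM, which binds all the survival proteins and can activate the effectors, and it read 7.77 in control kidney, 8.43 after NTS and 7.59 after NTS with PGE2. Bmf, whose protein is tied to the cytoskeleton in healthy cells, read 8.61, 9.25 and 8.49 in the same order. Both were highest on the NTS array and slightly lower after PGE2 than in control kidney. Their differences between NTS and control were 0.66 and 0.64, and after PGE2 they stood -0.84 and -0.76 from the NTS level. Against control the NTS/PGE2 values lay at -0.18 for Bcl2l11 and -0.12 for Bmf, the latter within the technical SD. These are 1.44 and 0.94 times that SD, and 15.9% and 22.6% of genes lay as low or lower.

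Pmaip1 encodes NOXA, a p53-responsive protein that binds MCL-1 above all. It read 7.49 in control kidney, 7.93 after NTS and 7.62 after NTS with PGE2, a difference of 0.44 for NTS against control. Bik, which encodes a BH3-only protein of the endoplasmic reticulum, read 7.87, 8.11 and 7.88 in the same order. Its largest difference was 0.25, which is 1.23 times the technical SD.

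Bid and Bad differed by less than 0.20 on the log2 scale in each comparison. Bid encodes the protein that caspase-8 cleaves to link death receptors to mitochondria, and it read 9.33 in control kidney, 9.32 after NTS and 9.16 after NTS with PGE2. Its NTS/PGE2 value lay below control by a difference of -0.17, 1.37 times the technical SD. Bad, whose protein is switched off by survival kinases, read 7.78 on the control array and 7.83 on both other arrays.

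**Figure D2:**
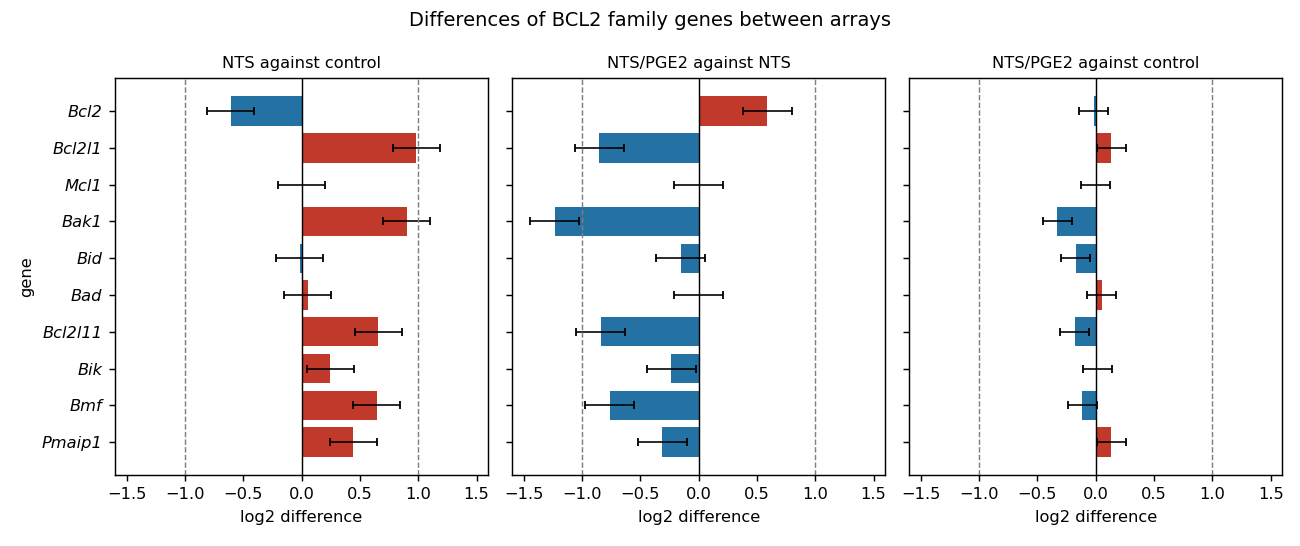
Log2 difference (horizontal axis) of each BCL2 family gene in the 3 comparisons, with 1 array per group. Bars start at 0, error bars are the technical SD of 0.20, 0.21 and 0.12 and not a spread between animals, and dashed lines mark 2-fold; Bak1 at -1.23 for NTS/PGE2 against NTS is the bar past a dashed line.

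The members past 2-fold were counted beside all genes. Between NTS and control 0 of 10 members were at least 2-fold higher, where 2.7% of all genes passing the filter were, and 0 were at least 2-fold lower, where 5.42% were. Between NTS/PGE2 and NTS 1 member, Bak1, was at least 2-fold lower against 3.28% of genes, and 0 were at least 2-fold higher against 4.15%. Between NTS/PGE2 and control 0 members were past 2-fold, against 0.0607% of genes higher and 0.659% lower. With the arrays centred on the median of bright genes, Bcl2l1 reached 1.01 above control on the NTS array and so passed the rule.

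At a smaller threshold of 1.5-fold, 4 members were higher after NTS than in control, where 7.62% of genes were, and 1 was lower, where 11.9% were. The 4 were Bcl2l1, Bak1, Bcl2l11 and Bmf, and the lower gene was Bcl2. Relative to NTS, 4 members (Bcl2l1, Bak1, Bcl2l11 and Bmf) were at least 1.5-fold lower after PGE2, against 8.93% of genes, and 1, Bcl2, was higher, against 9.98%. Both comparisons share the NTS array, so these counts are not independent of each other. Relative to control, 0 members passed 1.5-fold after PGE2, against 0.555% of genes higher and 2.15% lower.

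Another rule, added after the data were seen, took differences of over 2 technical SD. By it 5 members were higher between NTS and control, against 13% of genes, and 1 was lower, against 17.4%; Pmaip1 joined the genes past 1.5-fold. After PGE2, 4 members were lower than on the NTS array, against 13.9% of genes, and 1 was higher, against 14.3%. Relative to control 0 were higher, against 4.84% of genes, and 1, Bak1, was lower, against 10.6%. The median difference of the 10 genes was 0.35 between NTS and control and -0.27 between NTS/PGE2 and NTS. Between NTS/PGE2 and control it was -0.01, which turned to 0.03 with arrays centred on the median of bright genes. The median of all genes was 0 in each comparison.

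**Figure D3:**
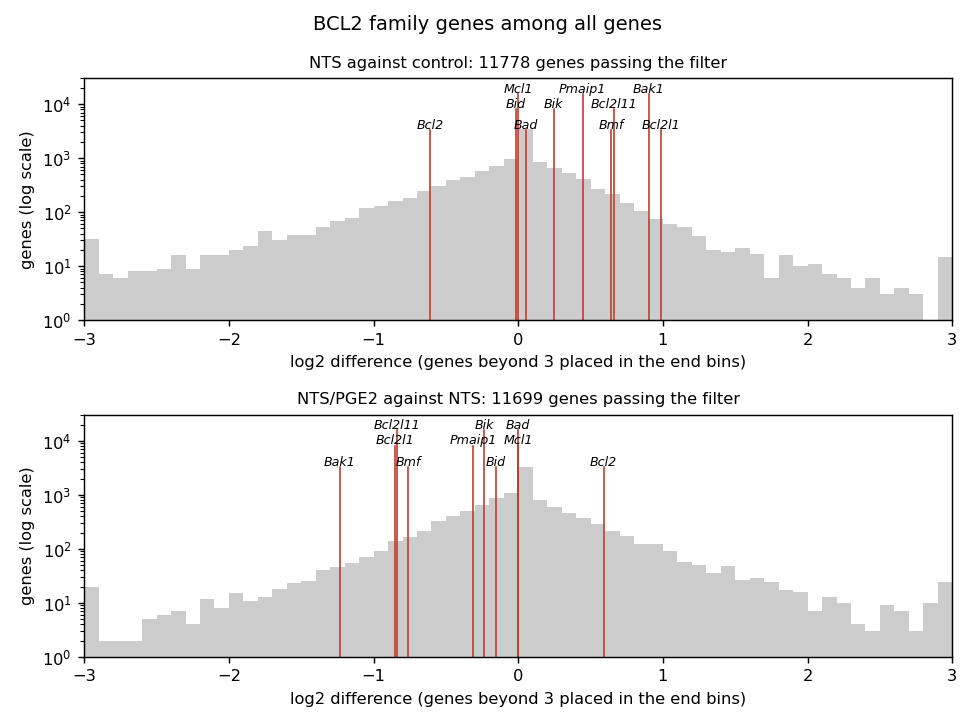
Histograms of the log2 difference (horizontal axis) of genes passing the filter, 11778 in the upper panel (NTS against control) and 11699 in the lower (NTS/PGE2 against NTS), with the number of genes on a log scale; red lines mark the 10 BCL2 family genes. Bcl2l1 at 0.98 and Bak1 at 0.90 lie in the right tail of the upper panel, and Bak1 at -1.23 lies farthest left of the 10 in the lower panel.

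Promoter sequence is shown for the 5 genes past 1.5-fold for NTS against control, the 4 higher ones first and Bcl2, which ran the other way, last. Each is the 250 bases before the most upstream start in the RefSeq table of the GRCm38.p6 build, written 5′ to 3′ on the strand of the gene. Windows were found for 8 of the 10 genes; Bik and Pmaip1 had none. Capitals mark matches on either strand to 9 motifs: the FOXO motif GTAAACA, the CCAAT box CCAAT, the GC box GGGCGG, the TATA box TATAAA, the AP-1 motif TGANTCA, the CRE TGACGTCA, the STAT motif TTCNNNGAA, the E-box CACGTG and the CHOP and ATF4 motif TGATGNAAT. No matches overlapped in these windows.
Bcl2l1, chr2:152831729-152831978, minus strand: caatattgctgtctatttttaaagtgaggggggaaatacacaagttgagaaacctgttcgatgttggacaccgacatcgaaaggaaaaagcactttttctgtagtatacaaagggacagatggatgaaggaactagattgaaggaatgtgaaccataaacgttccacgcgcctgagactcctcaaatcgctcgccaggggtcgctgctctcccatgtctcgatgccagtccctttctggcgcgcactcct
Bak1, chr17:27028628-27028877, minus strand: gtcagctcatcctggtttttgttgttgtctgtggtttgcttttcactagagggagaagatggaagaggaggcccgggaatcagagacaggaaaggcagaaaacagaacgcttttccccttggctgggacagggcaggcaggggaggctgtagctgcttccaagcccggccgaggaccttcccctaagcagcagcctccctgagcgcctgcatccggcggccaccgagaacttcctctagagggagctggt
Bcl2l11, chr2:128125788-128126037, plus strand: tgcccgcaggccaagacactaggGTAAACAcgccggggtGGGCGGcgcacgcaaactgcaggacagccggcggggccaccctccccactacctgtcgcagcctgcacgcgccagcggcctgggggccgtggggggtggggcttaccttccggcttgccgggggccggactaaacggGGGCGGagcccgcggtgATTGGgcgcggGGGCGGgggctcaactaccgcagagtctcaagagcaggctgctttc
Bmf, chr2:118549687-118549936, minus strand: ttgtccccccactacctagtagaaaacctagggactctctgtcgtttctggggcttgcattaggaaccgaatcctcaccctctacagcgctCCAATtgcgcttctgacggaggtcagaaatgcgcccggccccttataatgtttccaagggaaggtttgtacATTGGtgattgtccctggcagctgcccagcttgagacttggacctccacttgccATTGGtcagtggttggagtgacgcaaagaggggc
Bcl2, chr1:106714291-106714540, minus strand: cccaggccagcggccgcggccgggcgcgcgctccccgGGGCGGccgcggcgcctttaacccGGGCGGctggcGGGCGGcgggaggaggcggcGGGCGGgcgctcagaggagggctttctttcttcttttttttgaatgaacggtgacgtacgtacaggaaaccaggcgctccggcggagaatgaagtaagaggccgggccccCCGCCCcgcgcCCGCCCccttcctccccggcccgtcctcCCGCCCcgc

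The windows of the genes that stood higher on the NTS array had little sequence in common by these motifs. The Bcl2l1 and Bak1 windows held 0 matches, at GC contents of 47.6% and 58.4%. The Bcl2l11 window, with a GC content of 72.0%, held 1 FOXO motif, found in 3.17% of 32851 windows of all genes, besides 3 GC boxes and 1 CCAAT box. The Bmf window held 3 CCAAT boxes, a motif found in 33.8% of windows. The Bcl2 window held 7 GC boxes, a motif in 32.7% of windows, and its GC content was 74.8% against a median of 52.4%. A match is a description of the letters and not a binding site, and Bcl2l1, Bcl2l11 and Bmf have other starts in the table, 3, 2 and 3 in all.

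By the 2 differences from control, NTS and NTS/PGE2, the pattern nearest to that of Bcl2l1 among 11097 bright genes belonged to Creb5, a transcription factor of the CREB family, at a Euclidean distance of 0.02 log2 units. Creb5 stood 0.97 above control on the NTS array and 0.14 above it on the NTS/PGE2 array. The next were the G1 cyclin-dependent kinase gene Cdk6 and Pde12, with Hip1r and Dnajc5 at distances of 0.03 and 0.04. With 3 arrays, such a match rests on 2 values.

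The rest of the family was measured in 14 of 18 listed genes, and 0 of these were past 2-fold for NTS against control. For this list and those below, the shares of all genes passing the filter were 2.7% higher and 5.42% lower. The median of the 14 genes was 0, with 6 genes higher, 3 lower and 5 exactly equal. Bnip3, a mitophagy gene induced by low oxygen, read 11.13 in control kidney, 11.64 after NTS and 11.08 after NTS with PGE2. Its differences were 0.50 between NTS and control and -0.56 between NTS/PGE2 and NTS. The BH3-only gene Hrk differed by 0.21, the survival gene Bcl2l2 by -0.13 and the mitophagy gene Bnip3l by -0.10. Bok, an effector relative, read 8.17, 8.24 and 8.15, and Bbc3, which encodes PUMA, read 7.06, 7.15 and 7.06. Bbc3 thus lay near the middle of all probe sets on every array, and its differences were within the technical SD.

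Downstream of the mitochondria, the apoptosome and caspase list had 11 measured genes, of which 5 were higher and 5 lower for NTS against control and 0 past 2-fold. Apaf1, the scaffold of the apoptosome, differed by 0.45, and Casp2, an initiator caspase, by 0.57. Aifm1, a mitochondrial flavoprotein, differed by -0.66 and the executioner gene Casp6 by -0.35. Cytochrome c (Cycs) read 10.39 in control kidney, 10.21 after NTS and 10.30 after NTS with PGE2.

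Of 7 genes for inhibitors of apoptosis proteins and their antagonists, 1 was past 2-fold, and higher, after NTS, against 2.7% of genes. This was Birc5, which encodes survivin, a protein that also works in cell division, with 5.87 in control kidney, 8.11 after NTS and 6.04 after NTS with PGE2. On the same arrays 8 of 13 measured cell cycle markers were at least 2-fold higher for NTS against control, where 2.7% of genes were. The part of these markers in the Birc5 value was not tested. Birc3, a ubiquitin ligase of NF-kB signalling, read 8.07, 8.89 and 7.92. The protease gene Htra2 and the large ligase gene Birc6 differed by -0.44 and -0.43 for NTS against control. Xiap and Diablo, the direct caspase inhibitor and its antagonist, each had exactly equal values on the 3 arrays.

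In the death receptor list, with 8 measured genes, 2 were past 2-fold, and lower, after NTS, against 5.42% of genes. Tnfsf10, the gene of the death ligand TRAIL, read 9.17 in control kidney, 7.42 after NTS and 8.84 after NTS with PGE2, and Fadd, the adaptor that recruits caspase-8, read 8.37, 7.26 and 7.90. After PGE2, Tnfsf10 stood 1.42 above the NTS level, past 2-fold, and Fadd 0.63 above it. The receptor gene Fas read 7.88 on all 3 arrays. Tnfrsf1a, the TNF receptor, and Tnfrsf10b, the TRAIL receptor, differed by 0.24 and 0.23 for NTS against control. The necroptosis and pyroptosis list had 3 of 7 genes bright enough for the filter and 0 past 2-fold, and its kinase gene Ripk3 read 6.78, 7.36 and 6.78, while Zbp1 differed by -0.26 and Pycard by 0.04.

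At the mitochondrion itself, the 10 genes for pore and dynamics proteins had a median of -0.13 for NTS against control. The technical SD is that of 1 probe set's difference and is no measure of error for a median. Of the 10 genes, 7 were lower by any amount and 1 was higher. Of the 11778 genes passing the filter, 4784 were lower and 4740 higher. Ppif, which encodes cyclophilin D, a regulator of the permeability transition pore, was at least 2-fold lower, at 11.18 in control kidney, 10.14 after NTS and 10.76 after NTS with PGE2. Fis1 differed by -0.33, and the fusion genes Mfn1 and Mfn2 by -0.27 and -0.26.

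Of 22 measured regulators of the family, 3 were past 2-fold, and higher, after NTS, against 2.7% of genes. Past 2-fold and lower were 0 of the 22, against 5.42% of genes. The list's median was 0.25 for NTS against control, where that of all genes was 0, and some of its differences lay within the technical SD. Stat3, a transcription factor known to drive Bcl2l1, read 10.19 in control kidney, 11.49 after NTS and 10.26 after NTS with PGE2. Sfn, a 14-3-3 protein gene, differed by 1.12 between NTS and control and by -1.38 between NTS/PGE2 and NTS. The co-chaperone gene Bag3, whose protein binds BCL-2, differed by 1.02 and -0.62. Pim1, a kinase gene whose protein can inactivate BAD, differed by 0.66 and -0.80. After PGE2, 0 genes of these 7 lists were past 2-fold from control, where 0.0607% of genes passing the filter were higher and 0.659% lower. The count of 0 thus lay near the share over all genes.

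**Figure D4:**
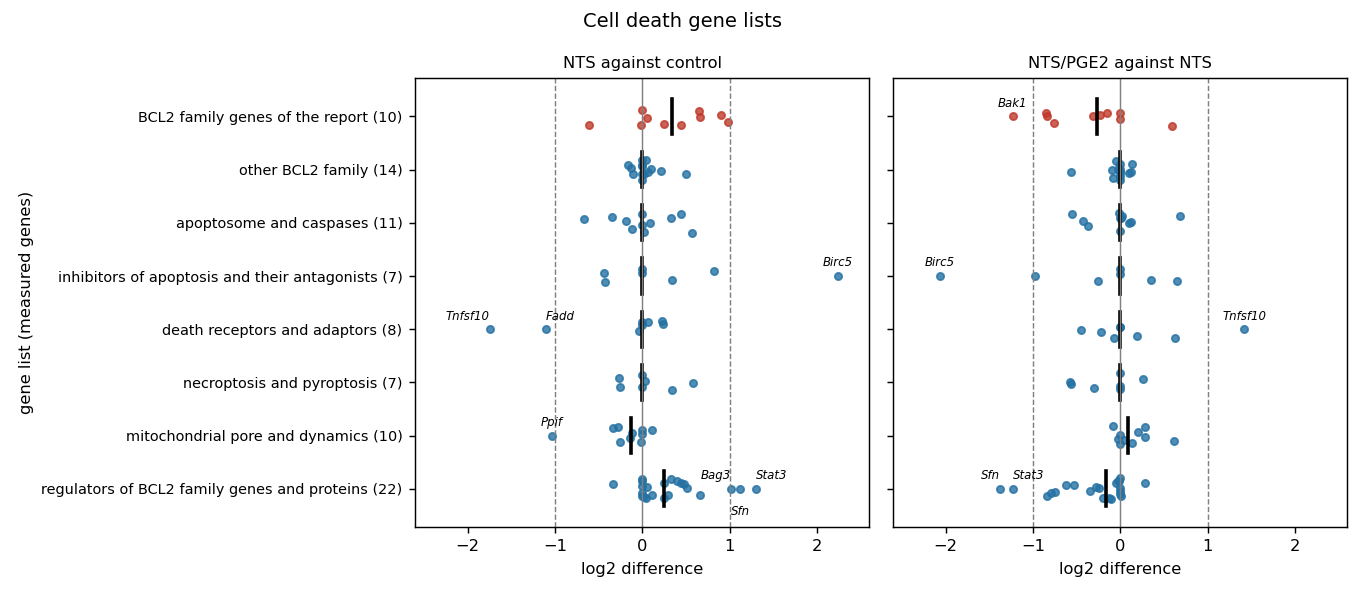
Log2 difference (horizontal axis) of the measured genes in the BCL2 family set and 7 other cell death lists (vertical axis, number of genes in brackets), in the left panel between NTS and control and in the right one between NTS/PGE2 and NTS; points are genes, spread vertically for sight, black bars are medians, dashed lines mark 2-fold and genes at or past it are named. The BCL2 family median is 0.35 in the left panel and -0.27 in the right one, and the regulators' is 0.25 and -0.16.

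Several lists of cell markers differed between the same arrays. In the podocyte list 0 of 7 measured genes were past 2-fold for NTS against control. Injured tubule markers were at least 2-fold higher for NTS against control in 9 of 11 genes, where 2.7% of all genes were. The log2 of the summed level of these markers was 13.36 in control kidney, 15.39 after NTS and 12.85 after NTS with PGE2. Cell cycle markers summed to 10.75, 12.28 and 10.81. Endothelium markers, all 12 of them lower on the NTS array, summed to 13.94, 12.45 and 13.76, and proximal tubule markers to 17.02, 16.01 and 17.06. Macrophage markers, 7 of 11 lower and 3 higher for NTS against control, summed to 11.94, 12.23 and 11.58. Fat markers summed to 14.15, 11.14 and 12.29, highest on the control array. Of the 9 fat markers, 8 were at least 2-fold lower for NTS against control, where 5.42% of genes were. The sum of the fat markers is led by the brightest genes. Lpl read 11.77, 10.03 and 11.75 in the same order, and Ucp1 11.84, 5.72 and 5.91. Of the 9 fat markers, 2 were at least 2-fold higher after PGE2 than on the NTS array and 1 was lower. Against control, 7 of the 9 were at least 2-fold lower after PGE2, where 0.659% of genes were. Of 8 neutrophil and 11 T and NK cell markers 0 were bright enough for the filter. The part of these markers in the values of Bcl2l1, Bak1, Bcl2 and the BH3-only genes was not tested.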

How the data were processed

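Total RNA of kidney, 250 ng per array, was labelled with biotin and hybridised to 3 arrays, 1 per group, per the labels' protocols. The deposited values are log2 values that the authors made with Affymetrix Expression Console and RMA, per the submitters' processing notes; the genome build and versions were not stated in the sources used here. RMA's median polish can give exactly equal values, so small differences may be understated. Of 35556 probe sets, 21789 had 1 symbol, and these alone were used; gene identifiers matched 21698 in the GRCm38.p6 table. Probe sets of a gene were averaged. Calculations used Python 3.11.15 and pandas 2.3.3. The rule of size was run on simulated data with differences well away from 2-fold and no modelled spread between animals. This checks the code and not the calls made here. The number of arrays limits the precision.

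The 10 genes, the 21 other gene lists and the rules were chosen with earlier results of these data known. Named were all members, list genes past 2-fold or among the 4 largest differences for NTS against control, Bok and Bbc3, and the 5 genes nearest in pattern to the member farthest from control on the NTS array. Cycs, Fas, Xiap, Diablo and Lpl were added after their values were seen. Ucp1 had the largest difference of the fat markers for NTS against control. Alternatives covered probe set choice, scaling, filter and threshold.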

Additional observations from a re-analysis of the deposited data

How the results depend on the processing

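Under other probe set choices and scalings, 132 of 132 values of single members and of their median moved by less than the technical SD. The largest shift was 0.04, and 0 values past 2-fold changed sign. Each member has 1 probe set with no other symbol, so probe set choice could not alter its value. Rescaling shifts all genes of a comparison by the same amount. The 132 values are thus not separate checks and do not show that the differences were stable. Small differences did change sign when arrays were rescaled. These were Bid for NTS against control, Bik and Bcl2 for NTS/PGE2 against control, and the median of the 10 genes in that comparison. Centring on the median of bright genes took the members past 2-fold for NTS against control from 0 to 1, which was Bcl2l1. Counts rested on the threshold. At 1.5-fold, 5 members and 2304 of all genes passed between NTS and control, 5 and 2212 between NTS/PGE2 and NTS, and 0 and 312 between NTS/PGE2 and control. A rule of over 2 technical SD, added after the data were seen, gave 6 members and 3584 genes, 5 and 3309, and 1 and 1779 in the same order. The sixth member for NTS against control was Pmaip1, and the 1 for NTS/PGE2 against control was Bak1. No paired analysis was possible because each group had 1 array, and for the same reason no array could be left out. Without scanner values, signal could not be set against background.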
